A study of Mus musculus with 8 samples.

Results

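Expression of 10 genes that encode profibrotic and repair factors was measured in preparations labelled as Kupffer cells, macrophages that reside in the liver sinusoids, from mice with and without chronic liver injury. The genes were Pdgfa, Pdgfb, Pdgfc, Tgfb1, Tgfbi, Thbs1, Igf1, Vegfa, Hbegf and Areg. They were taken as a list of names, with the RefSeq transcripts of each symbol summed, and the list was drawn up with earlier results of these data known. They are 10 of 32903 genes with a matched transcript, and 9 of them were among the 15629 genes tested. Areg stayed below the filter of 1 TPM in 3 libraries. The 3 CCl4 libraries came from wild-type mice given carbon tetrachloride, a toxin that hepatocytes convert to a reactive radical, in corn oil at 0.75 mL/kg, repeated 3 times weekly over 8 weeks. The 5 naive libraries came from untreated wild-type mice, and the labels describe no group given the oil alone. The labels number the CCl4 libraries 1, 2-4 and 3 without saying whether 2-4 is a pool, and they do not tie libraries to separate animals. The p-values here therefore measure the spread between libraries, which may be partly technical. The sources used here give neither the age and sex of the mice nor the way the cells were isolated.

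These factors act between cells. PDGF chains pair into dimers that bind PDGF receptors on hepatic stellate cells, the main source of scar collagen, and drive their division and migration. TGF-beta is secreted in a latent complex, is freed by integrins, proteases or thrombospondin 1, and induces matrix genes, while TGF-beta-induced protein, the product of Tgfbi, is a secreted matrix protein. IGF-1, VEGF-A and the EGF receptor ligands HB-EGF and amphiregulin promote survival and growth of hepatocytes, endothelium and other repair cells, and macrophages are a known source of several of them.

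In CCl4 libraries Pdgfa, Pdgfb, Tgfbi and Thbs1 were higher and Pdgfc, Vegfa and Hbegf were lower, while Tgfb1 and Igf1 did not pass the test. Thus 7 of 9 tested genes were called by limma at an adjusted p under 0.05, against a background of 37.8% of all tested genes. The 4 higher genes stand against a background of 15.3% and the 3 lower ones against 22.5%. No overlap between groups was seen for 5 of the 9, Pdgfa, Pdgfb, Tgfbi, Thbs1 and Hbegf, against 36.9% of all tested genes. The median absolute log2 fold change was 1.01 over the 9 genes and 0.41 over all tested genes. The signed medians were -0.092 and -0.064. Pdgfb, Tgfbi, Thbs1 and Hbegf kept their calls whichever library was left out, and Pdgfa, Pdgfc and Vegfa each lost theirs in at least 1 such test. All values are TPM, an abundance per transcript length scaled to the library's total, and each fold change is a difference of log2(TPM + 1), so it is too small for genes near the floor. In bulk RNA, fewer cells of a type and less RNA per cell cannot be told apart.

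**Figure D1:**
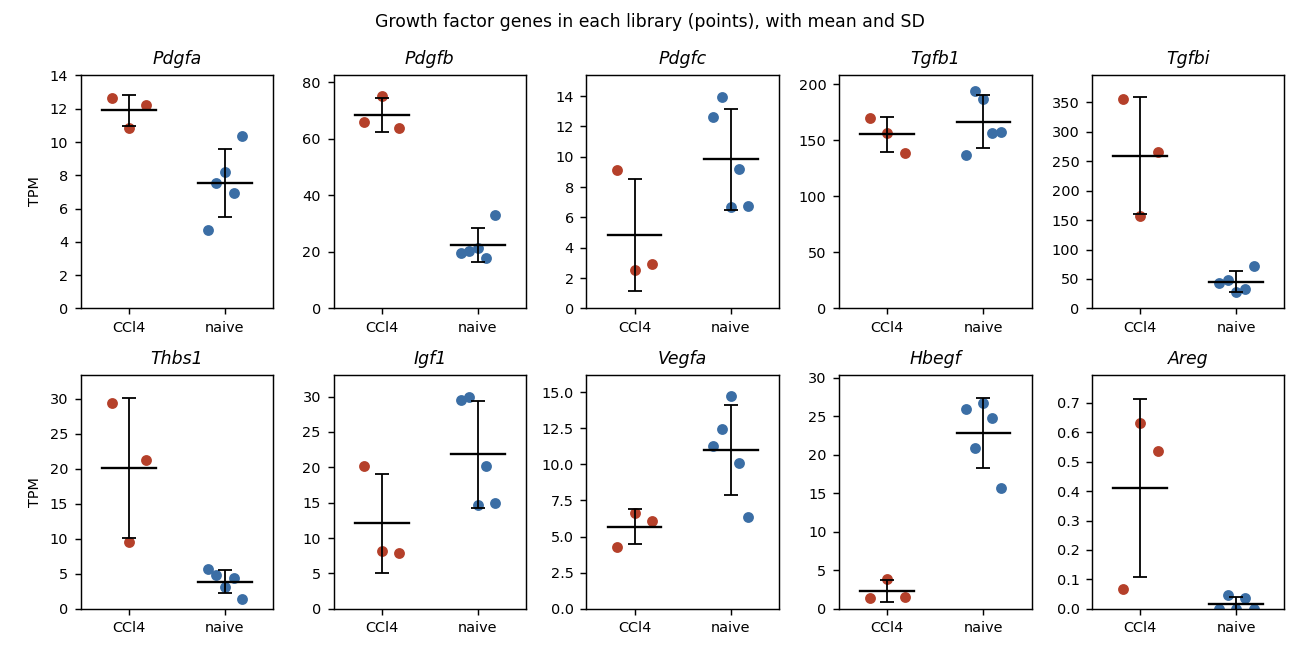
TPM of the 10 genes in each of 3 CCl4 and 5 naive libraries (points), with the mean (long bar) and SD (whiskers). The 3 CCl4 libraries lie above all naive libraries for Pdgfa, Pdgfb, Tgfbi, Thbs1 and Areg, below them for Hbegf, and overlap with them for the other genes.

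The cell markers differed between groups as well, and endothelial markers summed to more TPM than Kupffer cell markers in every naive library. The 10 Kupffer cell markers summed to 306.2 to 424.4 TPM in CCl4 and 2672 to 5709.8 TPM in naive libraries, and each reached 1 TPM in a CCl4 library. Clec4f, a lectin of Kupffer cells, averaged 77.7 ± 11.1 TPM (SD, n = 3) in CCl4 and 1397 ± 416 TPM (SD, n = 5) in naive libraries. The 11 matched markers of sinusoidal endothelium summed to 232.5 to 626.0 TPM in CCl4 and 6078 to 11261 TPM in naive libraries, and all 11 were lower. The 10 monocyte markers summed to 1270.2 to 1733 TPM in CCl4 and 1008 to 1203 TPM in naive libraries, with Ccr2 at 251.1 ± 63.9 and 18.6 ± 11.1 TPM. Genes that respond to tissue dissociation summed to 4545 to 6917 TPM in CCl4 and 2234 to 3127 TPM in naive libraries, and 12 of 14 were higher. Hepatocyte markers summed to 236.5 to 902.0 TPM in CCl4 and 706.3 to 1584 TPM in naive libraries. Stellate cell markers summed to 152.4 to 182.7 and 97.2 to 180.1 TPM, and neutrophil markers, among which Ly6g was at 0 in every library, to 42.5 to 53.7 and 25.8 to 34.2 TPM. Csf3r and Cxcr2 made up most of each neutrophil sum, and of 4 tested neutrophil markers 1 was higher, 1 lower and 2 not called. Lymphoid and basophil markers summed to 58.9 to 144.5 TPM in CCl4 and 121.4 to 140.4 TPM in naive libraries, and cholangiocyte markers, with Cftr at 0 throughout, to 8.11 to 13.0 and 5.08 to 15.5 TPM. Naive replicate 5 had the lowest endothelial sum of the naive libraries and correlated with the CCl4 libraries at 0.878 to 0.888 across genes, against 0.813 to 0.846 for the other naive libraries. The part of these cell markers in the growth factor results was not tested.

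**Figure D2:**
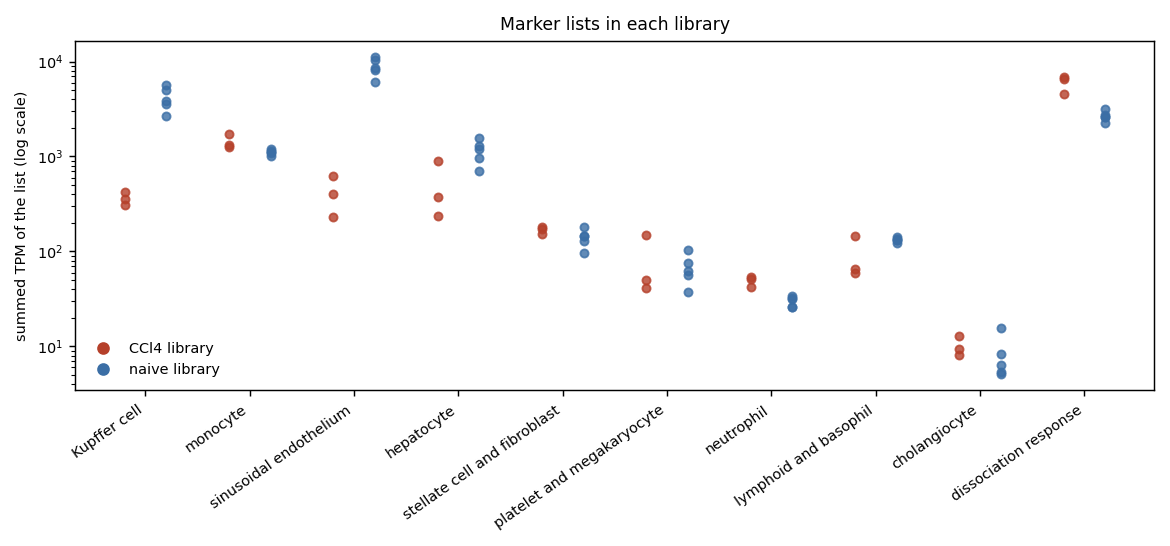
Summed TPM of 10 marker lists (log axis) in CCl4 libraries (left of each pair) and naive libraries (right). The Kupffer cell and endothelial sums are lower in every CCl4 library (at most 424.4 and 626.0 TPM) than in any naive library, and the dissociation response sum is higher (at least 4545 TPM against at most 3127 TPM).

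The PDGF ligands changed in opposite directions. Pdgfb (GRCm38 chromosome 15, 79995865 to 80024614), which encodes the B chain, the strongest known PDGF mitogen for stellate cells, had 66.2, 75.2 and 64.0 TPM in CCl4 libraries 1, 2-4 and 3. The naive libraries 1 to 5 had 19.8, 20.2, 21.5, 17.8 and 33.1 TPM. Every CCl4 library was well above the highest naive library, replicate 5. The mean was 3.05 times the naive mean, with a log2 fold change of 1.60 (SE 0.19, limma adjusted p = 8.23e-05), and 1.74 without naive replicate 5. At the transcript level, 7 of 24 tested transcripts of the 10 genes were called, 5 higher and 2 lower, against 19% of all tested transcripts (7.56% higher and 11.4% lower). Both matched transcripts of Pdgfb were among those called higher, NM_011057.3 by 1.57 and XM_006520592.3 by 1.48 on the log2 scale.

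Pdgfa (chromosome 5, 138976014 to 139000792), which encodes the A chain, had 12.6, 10.8 and 12.3 TPM in CCl4 libraries, against 4.72, 7.54, 8.20, 6.96 and 10.4 TPM in naive libraries. The groups did not overlap, but CCl4 2-4 and naive replicate 5 differed by less than 1 TPM. Its log2 fold change was 0.62 (SE 0.21, adjusted p = 0.0385). The call was lost when any library other than naive replicate 5 was left out, with adjusted p between 0.0508 and 0.105, and it passed in 10 of 19 alternatives in all. Of its 3 transcripts only NM_008808.3 was called, at 4.37, 4.37 and 4.10 TPM in CCl4 libraries, against 0.222, 0.911, 2.27, 0.891 and 1.89 TPM in naive libraries (log2 fold change 1.32, adjusted p = 0.0263 over all transcripts).

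Pdgfc (chromosome 3, 81036416 to 81214040) encodes the C chain, which is cut open by proteases such as tissue plasminogen activator. It had 9.11, 2.52 and 2.92 TPM in CCl4 libraries, against 12.6, 13.9, 6.66, 9.21 and 6.74 TPM in naive libraries. CCl4 replicate 1 lay within the naive range and the other 2 CCl4 libraries below it. Its log2 fold change was -1.01 (SE 0.36, limma adjusted p = 0.0477). The call was at the edge of the threshold: the adjusted p was 0.00331 without CCl4 replicate 1 and 0.188 without CCl4 replicate 2-4, and Pdgfc passed in 7 of 19 alternatives. Its main transcript, NM_019971.2, did not pass the transcript test (adjusted p = 0.0732).

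Within the PDGF family the summed TPM of the 4 ligands was 80.7 to 89.7 in CCl4 and 42.5 to 57.5 in naive libraries. Pdgfb made up 74.7, 83.8 and 79.3% of that sum in CCl4 libraries, against 40.6, 36.6, 40.3, 41.9 and 57.6% in naive libraries. Pdgfd, which encodes the D chain, made up 0.776 to 1.89% in CCl4 and 12.6 to 31.8% in naive libraries, and Pdgfc 2.80 to 10.3% and 11.7 to 25.9%. Both of these chains are secreted latent and need cutting, and the share of each was lower in every CCl4 library than in any naive one. The share of Pdgfa overlapped, at 12.1 to 15.2% in CCl4 and 9.70 to 18.1% in naive libraries.

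Of 7 other tested genes on the PDGF list, 1 was higher, 2 were lower and 4 were not called, with a median log2 fold change of 0.13. Pdgfd fell by 2.52 (SE 0.26, adjusted p = 3.38e-05), to 1.14 ± 0.423 TPM in CCl4 libraries against 11.5 ± 3.89 TPM in naive libraries (SD, n = 3 and 5). Nrp1, a co-receptor for PDGF and VEGF that endothelium expresses, fell by 2.02. Pdgfrb, the receptor for the B chain and a stellate cell marker, rose by 0.55 (adjusted p = 0.0394), at 1.82 to 2.31 TPM in CCl4 and 0.666 to 1.60 TPM in naive libraries. It lost its call in 6 of the 8 tests with a library left out. Of the 12 stellate cell markers, Pdgfrb among them, 3 were higher, 3 lower and 6 not called. The receptor for the A chain, Pdgfra, was at 1.02 ± 0.252 and 0.985 ± 0.225 TPM (adjusted p = 0.930). The protease genes Plau, which encodes urokinase, and Furin had log2 fold changes of 0.41 and 0.25 and were not called (adjusted p = 0.101 and 0.180), and both were negative when only version-matched transcripts were summed, at -0.29 and -0.32.

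**Figure D3:**
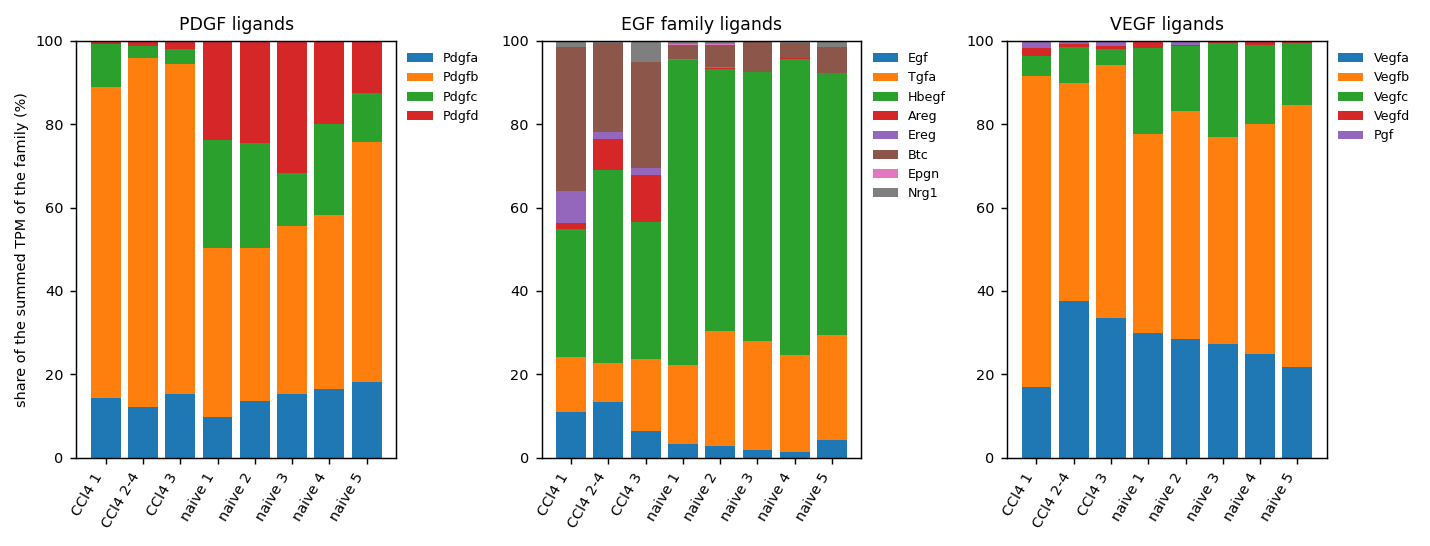
Share of the summed TPM of the PDGF, EGF family and VEGF ligand genes held by each gene (stacked to 100%), for the 3 CCl4 libraries on the left and the 5 naive libraries on the right of each panel. Pdgfb holds 74.7 to 83.8% of the PDGF ligands in CCl4 and 36.6 to 57.6% in naive libraries, and Hbegf 30.8 to 46.2% and 62.7 to 73.1% of the EGF family.

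Tgfb1 and Tgfbi were the most abundant of the 10 genes, and they differed in response. Their upstream sequences are shown because one gene changed and the other did not. Each is the 250 bases before the annotated start from RefSeq (GRCm38.p6), 5′ to 3′ on the gene's strand, with capitals marking GC boxes (GGGCGG on either strand).
Tgfbi, chr13:56609336-56609585, plus strand: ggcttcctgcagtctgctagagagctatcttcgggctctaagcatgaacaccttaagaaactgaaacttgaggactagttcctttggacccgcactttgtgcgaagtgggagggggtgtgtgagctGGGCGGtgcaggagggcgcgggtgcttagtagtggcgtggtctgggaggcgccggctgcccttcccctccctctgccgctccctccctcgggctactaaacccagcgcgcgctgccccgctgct
Tgfb1, chr7:25686752-25687001, plus strand: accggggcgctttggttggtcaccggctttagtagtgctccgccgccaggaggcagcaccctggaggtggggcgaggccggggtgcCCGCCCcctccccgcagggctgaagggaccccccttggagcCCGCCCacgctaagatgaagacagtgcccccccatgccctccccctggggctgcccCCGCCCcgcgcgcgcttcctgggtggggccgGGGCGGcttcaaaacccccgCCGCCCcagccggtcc
The Tgfb1 window held 5 GC boxes, 75.2% G and C and 21 CpG dinucleotides, and the Tgfbi window 1 GC box, at position -124, with 62.4% and 15. A GC box was present in 32.7% of 32851 such windows. Neither window held the AP-1 motif TGANTCA (6.75% of windows) or TATAAA (12.4% of windows) on either strand. These matches describe letters and are not binding sites.

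Tgfbi (chromosome 13, 56609586 to 56639359) had 354.6, 157.6 and 265.7 TPM in CCl4 libraries, against 43.8, 49.0, 28.6, 32.7 and 72.9 TPM in naive libraries. The lowest CCl4 library stood above the highest naive one, replicate 5, by more than the whole naive range. The mean was 259.3 ± 98.6 TPM (SD, n = 3) in CCl4 and 45.4 ± 17.4 TPM (SD, n = 5) in naive libraries. The log2 fold change was 2.49 (SE 0.32, adjusted p = 1.30e-04), with 2.22 to 2.81 when each library was left out. A larger absolute change was found in 3.95% of tested genes.

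Tgfb1 (chromosome 7, 25687002 to 25705077), which encodes TGF-beta 1, the central profibrotic cytokine, had 169.9, 156.7 and 139.1 TPM in CCl4 libraries, against 136.8, 194.0, 186.9, 156.5 and 157.5 TPM in naive libraries. All 3 CCl4 libraries lay within the naive range. The log2 fold change was -0.092 (SE 0.15, adjusted p = 0.665), and it passed the test under none of 20 alternatives, in which it ran from -0.16 to -0.016. Tgfb1 held 94.4 to 95.0% of the summed TPM of the 3 TGF-beta genes in CCl4 and 94.7 to 98.5% in naive libraries. Tgfb3 was higher in CCl4, at 7.46 to 8.63 TPM against 2.39 to 8.57 TPM in naive libraries (log2 fold change 1.05, adjusted p = 0.0257), and passed in 12 of 20 alternatives.

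Thbs1 (chromosome 2, 118111876 to 118127133), which encodes thrombospondin 1, a matrix glycoprotein that can free TGF-beta from its latent complex, had 29.4, 9.54 and 21.3 TPM in CCl4 libraries. The naive libraries had 5.63, 4.84, 3.13, 4.35 and 1.35 TPM. The groups did not overlap, and CCl4 2-4 was the lowest CCl4 library, as it was for Tgfbi. Thbs1 rose by 2.07 in log2 units (SE 0.39, adjusted p = 0.00173), with 1.74 to 2.51 when each library was left out. Its transcript NM_011580.4 was called (2.11, adjusted p = 0.0276) and NM_001313914.1 was not (1.47, adjusted p = 0.0571). Platelets also store thrombospondin 1, TGF-beta 1 and PDGF, and the 10 platelet markers summed to 147.9, 41.0 and 50.3 TPM in CCl4 libraries, against 74.7, 103.3, 56.6, 62.8 and 37.2 TPM in naive libraries. CCl4 replicate 1 was the highest library for Thbs1, Tgfbi and the platelet marker sum. Pf4 alone gave 133.7 of the 147.9 TPM of that sum, so the high sum there was that of a single gene. Of 8 tested platelet markers 2 were lower and none was higher, and their part in the result was not tested. Without CCl4 replicate 1 Thbs1 was still called, with a log2 fold change of 1.74 (adjusted p = 0.00934).

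Among 17 other tested genes of TGF-beta ligands, latency and activation, 7 were higher, 6 lower and 4 not called, with a median log2 fold change of 0.071. The latent TGF-beta binding proteins, which anchor the latent complex to matrix, went both ways. Ltbp3 and Ltbp2 rose by 2.23 (SE 0.23) and 1.67 (SE 0.20), with Ltbp3 at 14.4 ± 4.62 TPM in CCl4 and 2.23 ± 0.558 TPM in naive libraries. Ltbp4 fell by 5.06 (SE 0.33), to 5.34 to 20.4 TPM in CCl4 against 282.8 to 471.1 TPM in naive libraries. Lrrc32, which encodes GARP, a membrane anchor of latent TGF-beta, fell by 4.10 (SE 0.23), to 3.00 to 7.27 TPM in CCl4 against 81.7 to 121.7 TPM in naive libraries. Nrros, which encodes the related anchor of macrophages and microglia, rose by 0.73 (SE 0.15, adjusted p = 0.00359), with 115.4 to 145.4 TPM in CCl4 and 70.2 to 103.3 TPM in naive libraries. Integrin subunits that bind the latent complex also split. Itgav and Itgb5 rose by 0.98 and 1.56, Itgb3 fell by 2.48, and Itgb1 fell by 0.56 (adjusted p = 0.0181), a call lost without CCl4 replicate 3. The endothelial markers, all 11 lower, moved beside Ltbp4 and Lrrc32, and their part was not tested.

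Of 5 TGF-beta receptor genes, 1 was higher and 3 were lower. Tgfbr1, which encodes the signalling type I receptor, rose by 1.43 (SE 0.26, adjusted p = 0.00153), with 47.9 to 60.1 TPM in CCl4 and 11.6 to 31.6 TPM in naive libraries. Eng and Tgfbr3, co-receptors that endothelium expresses, fell, with log2 fold changes of -3.98 and -3.91, and Eng was at 40.1 ± 6.18 TPM in CCl4 and 664.3 ± 170.8 TPM in naive libraries. Tgfbr2, the ligand-binding type II receptor, fell by 0.58 (adjusted p = 0.0206), with overlapping groups and no call without CCl4 replicate 2-4 or 3. The median of the 5 was -0.58.

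Among 16 other TGF-beta response genes, 7 were higher, 4 lower and 5 not called, with a median of 0.078. Those that rose included the feedback regulators Tgif1 (1.64, SE 0.17), Skil (1.37, SE 0.17) and Pmepa1 (1.20, SE 0.19) and the immediate early gene Junb (0.99), which is also on the dissociation list. Tgif1 had 101.9 to 124.1 TPM in CCl4 and 26.6 to 43.8 TPM in naive libraries. Ccn2, which encodes the matricellular connective tissue growth factor, fell by 2.47 (SE 0.27, adjusted p = 4.73e-05), to 4.90 to 6.08 TPM in CCl4 against 18.3 to 49.3 TPM in naive libraries. Smad7, the inhibitory SMAD, was at 68.3 ± 14.8 TPM in CCl4 and 65.9 ± 9.16 TPM in naive libraries (adjusted p = 0.887), and Id3, at 515.1 ± 107.2 and 490.3 ± 77.5 TPM, was not called either (adjusted p = 0.813). Its log2 fold change was 0.066, and -0.069 with quantile normalization.

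**Figure D4:**
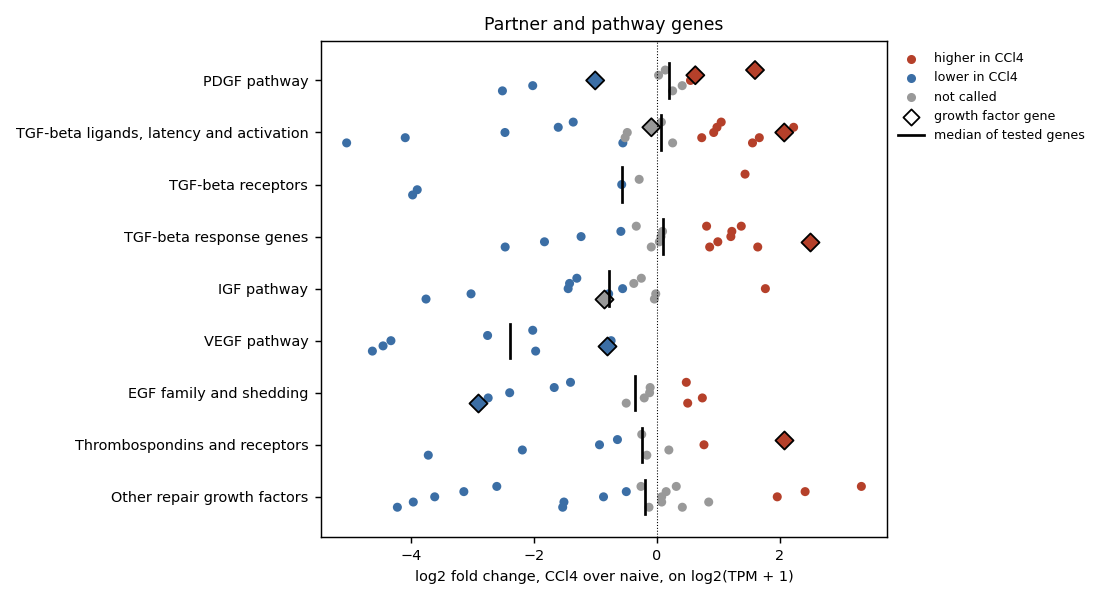
Log2 fold change (CCl4 over naive, on log2(TPM + 1)) of every tested gene on 9 pathway lists, with the 9 tested growth factor genes as diamonds and the median of each list as a bar. All 8 tested genes of the VEGF list lie below 0, while the PDGF and TGF-beta ligand lists hold both higher and lower genes.

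On the thrombospondin list, 1 of 8 other tested genes was higher, 4 were lower and 3 were not called, with a median of -0.45. Lrp1, the endocytic receptor that clears thrombospondin, rose by 0.77 (adjusted p = 0.0318), and was not called without CCl4 replicate 1 or 3 or naive replicate 3 or 4. The receptors Cd36 and Cd47 fell, with log2 fold changes of -2.19 and -0.94, and Adamts1, a protease that cuts thrombospondin, fell by 3.73, to 4.27 to 10.4 TPM in CCl4 against 83.7 to 160.0 TPM in naive libraries. Calr, which encodes calreticulin, had 590.9 ± 35.3 TPM in CCl4 and 677.7 ± 166.9 TPM in naive libraries (adjusted p = 0.551).

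Igf1 and Pdgfc ran in nearly the same order across the 8 libraries, and their upstream windows are shown for that reason. They are 250 bases from RefSeq (GRCm38.p6), 5′ to 3′ on the gene's strand. Capitals mark a match to TGANTCA, the pattern searched for AP-1, in which N is any base.
Igf1, chr10:87860861-87861110, plus strand: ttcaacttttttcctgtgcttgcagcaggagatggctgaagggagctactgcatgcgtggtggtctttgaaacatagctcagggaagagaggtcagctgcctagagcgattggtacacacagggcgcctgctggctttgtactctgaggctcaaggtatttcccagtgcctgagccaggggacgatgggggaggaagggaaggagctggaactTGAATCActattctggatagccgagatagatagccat
Pdgfc, chr3:81036166-81036415, plus strand: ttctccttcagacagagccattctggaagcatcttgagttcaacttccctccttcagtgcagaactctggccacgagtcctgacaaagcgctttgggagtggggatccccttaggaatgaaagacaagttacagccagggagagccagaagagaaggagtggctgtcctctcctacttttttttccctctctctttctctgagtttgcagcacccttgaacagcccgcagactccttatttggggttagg
The Igf1 window, before one of the starts annotated for the gene, held 1 AP-1 motif at position -37, and the Pdgfc window none. Neither held a GC box or TATAAA, and their G and C content was 52.8% and 50.8%, with 5 and 3 CpG dinucleotides.

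Igf1 (chromosome 10, 87858265 to 87937047), the gene of insulin-like growth factor 1, which hepatocytes and macrophages both make, had 20.2, 8.14 and 7.92 TPM in CCl4 libraries. The naive libraries had 29.6, 29.9, 14.6, 20.2 and 15.0 TPM. The groups overlapped through CCl4 replicate 1, the other 2 CCl4 libraries being below all naive ones, as for Pdgfc. The log2 fold change was -0.86 (SE 0.33, adjusted p = 0.0652), so Igf1 was not called. It was called without CCl4 replicate 1 (-1.28, adjusted p = 0.00829), without naive replicate 3 (0.0487) or 5 (0.0383), with library weights (0.0227) and after rescaling to protein-coding genes (0.0387), and its adjusted p ranged up to 0.237. Of its 14 matched transcripts only XM_017313812.1 was called, as lower (log2 fold change -1.31, SE 0.38, adjusted p = 0.0409 over all transcripts). It was at 0.627, 0 and 0.179 TPM in CCl4 libraries, against 1.23, 4.98, 1.77, 2.33 and 1.23 TPM in naive libraries. The most abundant transcript, NM_001111275.2, was not called (log2 fold change -0.80, limma adjusted p = 0.268). Values of single transcripts can depend on how reads were divided among similar ones. Like the Igf1 sum, the Kupffer cell marker sum was highest in naive replicates 2 and 1 (5709.8 and 5008 TPM) and, among CCl4 libraries, in replicate 1 (424.4 TPM). Hepatocyte markers were at 902.0 TPM in CCl4 replicate 1, against 374.7 and 236.5 TPM in 2-4 and 3. In naive libraries 1 to 5 they were at 1205, 1584, 1294, 974.8 and 706.3 TPM, and naive replicate 3 had the lowest naive Igf1 and Pdgfc. The part of these cells in the Igf1 and Pdgfc values was not tested.

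In the IGF list, 1 of 12 other tested genes was higher, 7 were lower and 4 were not called, with a median of -0.67. The lower genes included the receptor gene Igf1r, which fell by 1.45 (SE 0.22, adjusted p = 3.74e-04) to 3.69 to 6.16 TPM in CCl4, against 10.1 to 18.6 TPM in naive libraries. Igfbp7 and Igfbp4, the latter the gene of a protein that holds IGF in the extracellular space, fell. Their log2 fold changes were -3.76 (SE 0.28) and -3.03 (SE 0.23). Igfbp7 was the most abundant gene of the list, at 148.5 ± 41.4 TPM in CCl4 and 2047 ± 595 TPM in naive libraries. Irs2, the adaptor that carries insulin and IGF receptor signals, was the gene that rose, by 1.77 (SE 0.15, adjusted p = 8.57e-06), with 51.4 to 70.1 TPM in CCl4 and 14.1 to 18.6 TPM in naive libraries.

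Vegfa (chromosome 17, 46016993 to 46032377), the main angiogenic VEGF, had 4.30, 6.65 and 6.10 TPM in CCl4 libraries, against 11.3, 12.4, 14.8, 10.1 and 6.37 TPM in naive libraries. The groups overlapped because naive replicate 5 lay among the CCl4 libraries, and the other 4 naive libraries were above them. Its level fell by 0.82 in log2 units (SE 0.24, limma adjusted p = 0.0221), and -0.98 without naive replicate 5. The call was lost without CCl4 replicate 1 (0.0885), CCl4 replicate 3 (0.0510) or naive replicate 2 (0.0507), and with no filter on low values (0.0505). The deposited values divide Vegfa among 10 transcripts, some of which have equal values in every library and so were not told apart. The transcripts NM_009505.4, NM_001287057.1 and NM_001317041.1 together were listed at 0, 0.00127 and 0 TPM in CCl4 libraries, and at 6.97, 8.38, 9.33, 5.42 and 0 TPM in naive libraries. The pair NM_001025250.3 and NM_001287056.1 had 3.84, 2.93 and 3.47 TPM in CCl4 libraries, against 2.91, 2.61, 3.08, 0.930 and 3.28 TPM in naive libraries. The lower sum thus lay in a set of transcripts that was near 0 in all CCl4 libraries and naive replicate 5. A 0 here can come from how reads were divided among similar transcripts, and NM_009505.4 did not pass the transcript test (adjusted p = 0.0588).

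All 7 other tested genes of the VEGF list were lower, with a median of -2.76. The receptor genes Kdr, Flt4 and Flt1, which mark endothelium, fell, with log2 fold changes of -4.64 (SE 0.31), -4.46 (SE 0.28) and -4.33 (SE 0.23). Kdr, itself one of the endothelial markers, was at 15.9 to 50.9 TPM in CCl4 and 511.8 to 854.1 TPM in naive libraries. Nrp2, a co-receptor of lymphatic and sinusoidal endothelium, fell by 2.76 (SE 0.18). Of the other ligands, Vegfc and Vegfb fell, with log2 fold changes of -1.98 and -0.75 (adjusted p = 2.08e-04 and 0.0227). The ligand genes summed to 17.7 to 25.3 TPM in CCl4 and 29.1 to 54.1 TPM in naive libraries, and Vegfa held 17.0 to 37.5% and 21.9 to 29.8% of those sums, with overlapping shares.

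Hbegf, which encodes heparin-binding EGF-like growth factor, a membrane-anchored ligand released by shedding, had 1.38, 3.89 and 1.55 TPM in CCl4 libraries. The naive libraries had 25.9, 20.9, 26.7, 24.8 and 15.7 TPM. Each CCl4 library was below every naive library, CCl4 2-4 being the highest CCl4 library and naive replicate 5 the lowest naive one. The mean was 2.27 ± 1.40 TPM (SD, n = 3) in CCl4 and 22.8 ± 4.56 TPM (SD, n = 5) in naive libraries. The log2 fold change was -2.92 (SE 0.26, adjusted p = 1.19e-05), and -3.25 to -2.73 when each library was left out. This was the largest absolute change of the 9 genes with a pseudocount of 1, while with a pseudocount of 5 Tgfbi (2.38) exceeded Hbegf (-1.93). The endothelial marker sum was 232.5, 626.0 and 406.0 TPM in CCl4 libraries, against 8217, 10414, 11261, 8492 and 6078 TPM in naive libraries. CCl4 2-4 was thus the highest CCl4 library, and naive replicates 3 and 5 the highest and lowest naive libraries, for Hbegf, Vegfa and the endothelial markers alike. Their part in the result was not tested.

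**Figure D5:**
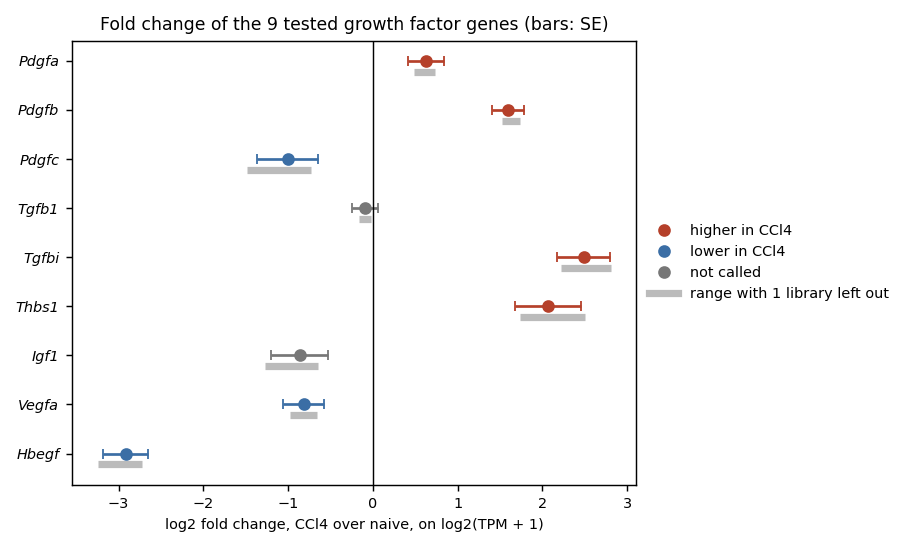
Log2 fold change of the 9 tested genes (points, CCl4 over naive on log2(TPM + 1)) with SE, and the range when each of 8 libraries was left out (grey). Tgfbi at 2.49 and Hbegf at -2.92 lie farthest from 0, and Tgfb1 at -0.092 lies nearest.

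Areg (chromosome 5, 91139599 to 91148432), which encodes amphiregulin, an EGF receptor ligand of type 2 immunity and repair, was near the floor. It was listed at 0.0656, 0.632 and 0.536 TPM in CCl4 libraries, and at 0, 0.0466, 0, 0.0363 and 0 TPM in naive libraries. The CCl4 libraries were all higher, but none reached 1 TPM, and no fold is given against naive libraries listed at 0. Tested with no filter on low values, its log2 fold change was 0.45 (SE 0.13, limma adjusted p = 0.0337). The EGF family ligands summed to 4.48 to 8.41 TPM in CCl4 and 25.0 to 41.5 TPM in naive libraries, of which Hbegf held 30.8, 46.2 and 32.8% in CCl4 libraries and 73.1, 63.0, 64.4, 70.9 and 62.7% in naive libraries. Areg held 1.46 to 11.4% of the family in CCl4 and at most 0.140% in naive libraries.

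Among 11 other tested genes of the EGF family and its shedding, 3 were higher, 4 lower and 4 not called, with a median of -0.21. Tgfa, which encodes another EGF receptor ligand, fell by 2.40 (SE 0.20, adjusted p = 6.56e-06), to 0.591 to 0.812 TPM in CCl4 against 6.33 to 10.9 TPM in naive libraries. The receptor genes Erbb2 and Egfr fell, with log2 fold changes of -2.75 and -1.41, and so did Rhbdf1 (-1.67), which helps the sheddase ADAM17 mature. Genes of the sheddases rose slightly, Adam17 by 0.48 (adjusted p = 0.0314) and Adam10 by 0.50 (adjusted p = 0.0432). The groups overlapped for both, Adam17 passed in 14 of 20 alternatives, and Adam10 lost its call in 6 of the 8 tests with a library left out. Cd9, a tetraspanin that binds the HB-EGF precursor, rose by 0.74 (adjusted p = 0.0205), a call lost without CCl4 replicate 1.

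By level, the 10 genes were ordered differently in the groups. In CCl4 libraries the order of means was Tgfbi, Tgfb1, Pdgfb, Thbs1, Igf1, Pdgfa, Vegfa, Pdgfc, Hbegf and Areg. The neighbours Tgfbi and Tgfb1, Thbs1 and Igf1, Igf1 and Pdgfa, Vegfa and Pdgfc, and Pdgfc and Hbegf had overlapping ranges. In naive libraries the order was Tgfb1, Tgfbi, Hbegf, Pdgfb, Igf1, Vegfa, Pdgfc, Pdgfa, Thbs1 and Areg, and each neighbouring pair from Hbegf to Thbs1 overlapped. Together the 10 genes summed to 667.8, 431.7 and 521.4 TPM in CCl4 libraries, against 290.1, 352.9, 311.0, 282.6 and 318.9 TPM in naive libraries. Tgfbi held 36.5 to 53.1% of that sum in CCl4 and 9.19 to 22.8% in naive libraries.

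Of 20 tested genes among other repair factors, 3 were higher, 9 lower and 8 not called, with a median of -0.20. Osm, which encodes oncostatin M, a macrophage cytokine that acts on stellate cells and hepatocytes, rose by 3.33 (SE 0.24), with 20.9 to 43.3 TPM in CCl4 and 1.36 to 2.46 TPM in naive libraries. The other genes that rose were Gdf15, a stress-induced TGF-beta family member, by 2.41, and Lgals3, which encodes galectin 3, by 1.96. Bmp2, an endothelial marker here, fell (-4.23, SE 0.20), as did Wnt2, a hepatocyte growth signal of sinusoidal endothelium (-3.62, SE 0.26), and Adm, the gene of adrenomedullin (-3.15, SE 0.24). Hgf, which encodes hepatocyte growth factor, was also among the lower genes (-1.52, SE 0.24, limma adjusted p = 5.17e-04). It had 16.69 to 24.32 TPM in CCl4 and 40.65 to 87.42 TPM in naive libraries. The abundant lysosomal protease gene Ctsb and the progranulin gene Grn were at 1808 ± 1084 and 450.9 ± 195.2 TPM in CCl4 libraries and 1785 ± 340 and 411.3 ± 91.1 TPM in naive libraries, and neither was called (adjusted p = 0.790 and 0.851). Over the 9 lists, 101 of 121 other genes were tested, 24 of them higher, 45 lower and 32 not called, where 15.3% of all tested genes were higher and 22.5% lower.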

How the data were processed

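RNA from preparations labelled as Kupffer cells was sequenced as bulk libraries, made with a directional kit per the labels' protocols. Per the file headers, values are given as TPM for each RefSeq transcript, made with kallisto 0.42.4 and GRCm38, per the submitters' processing notes. The sources used here do not give the index or trimming, and TPM hold no depth, which is unknown. Precision was therefore taken from the spread between libraries alone. Transcripts were matched to genes without version (86722 of 107384) through a RefSeq table of GRCm38.p6 and summed. The unmatched ones held 6.06 to 7.58% of a library's TPM and the 7SL RNA genes 27.5 to 41.3%.

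The test was limma 3.58.1 (R 4.3.3) on log2(TPM + 1) for genes reaching 1 TPM in 3 libraries, with group as its only term, an intensity trend in eBayes, two-sided p, Benjamini-Hochberg adjustment over all tested genes and a threshold of 0.05. Transcripts were tested likewise (35637 tested). The fit was also tested on simulated data with independent normal values. It recovered 99% and 98.2% of log2 changes of -2 and 2, and 67.6% and 75.8% of changes of -1 and 1. The simulation changed far fewer genes than were called here, so its rates need not hold for these data. Alternatives were pseudocounts of 0.1 and 5, a filter of 5 TPM or none, rescaling to protein-coding genes or by median of ratios, quantile normalization, no trend, robust variance, library weights, a replicate block, version-matched transcripts, and leaving out each library.

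The 10 genes and the lists were chosen with earlier results of these data known, so list counts are descriptions. Named from each pathway list were the 4 other genes with the lowest adjusted p and the 2 with the highest mean TPM, and from each marker list the 2 most abundant, not all of which are shown. Nrros, Itgav, Itgb3, Itgb5, Tgfb3, Pdgfra, Smad7, Vegfb, Vegfc, Adam17, Gdf15, Lgals3 and Hgf were named after their values were seen. Promoter windows of 7 of the 10 genes were searched. Some results are not reported here.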

Additional observations from a re-analysis of the deposited data

Results flagged for a closer look

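Of 55 results tested for a naive library far from the other 4, 2 were picked out, and chance alone picks out about 1 in 20 groups. Pdgfb was at 33.1 TPM in naive replicate 5, while the other naive libraries had 17.8 to 21.5 TPM. Cd36, the scavenger receptor gene on the thrombospondin list, was at 121.7 TPM in naive replicate 5, while the other naive libraries had 297.0 to 367.4 TPM. Both values lie on the side of the CCl4 libraries, which had 64.0 to 75.2 TPM of Pdgfb and 42.0 to 83.9 TPM of Cd36.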

How the results depend on the processing

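Of the 10 genes, 4 were called higher, and 3 or 4 under every alternative except version-matched transcripts, where 1 was (Thbs1) because Pdgfa, Pdgfb and Tgfbi then had no tested value. With no filter on low values the 4 were not the same genes. Pdgfa lost its call (limma adjusted p = 0.0695) and Areg, below 1 TPM in every library, gained one (0.0337). The number of lower calls, 3, became 1 with no filter on low values. When each library was left out, 3 to 4 genes were called higher and 1 to 4 lower, with 1 lower without CCl4 replicate 3 or naive replicate 2. The 7 called transcripts (of 24 tested) became 3 with no filter, 4 with a filter of 5 TPM, 11 with library weights and 3 to 10 when each library was left out. Quantile normalization moved the median of all tested genes to 0.11, against -0.064 with TPM as deposited. It called 4011 genes higher and 3086 lower, against 2393 and 3513, and the 9 growth factor genes kept their direction. With the replicate block, pairing numbers 1 and 3, limma called 4 growth factor genes higher, 2 lower, 2 of their transcripts and 5312 genes in all. Only the libraries numbered 1 and 3 inform the group difference in that fit. Its p-values therefore rest mostly on the variance that eBayes shares across genes. After each gene's group mean was subtracted, the libraries numbered 1 correlated at 0.0772 and those numbered 3 at -0.0414. The numbers were therefore not taken as pairs. The cause of these shifts was not tested. Changes of sign concerned genes that were not called: Plau at -0.29 and Furin at -0.32 with version-matched transcripts, Id3 at -0.069 with quantile normalization and Ctsb at 0.36 with the block. With each library left out, Id3 ran from -0.087 to 0.21, Grn from -0.25 to 0.33 and Ctsb from -0.59 to 0.26. Depth is unknown, so how far counting noise limits low genes such as Areg cannot be stated.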

Other observations

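The genes whose log2(TPM + 1) ran most like a growth factor gene over the 8 libraries, among tested genes with a mean of at least 10 TPM, are given as a description. The 8 points fall into 2 groups and share each library's scaling. Pdgfc ran most like Igf1 (Pearson's r 0.992), with Slc12a7 next (0.974). Igf1 in turn ran like Ncoa4 (0.975), the ferritin autophagy receptor gene, and Herc4 (0.970). Pdgfb ran like Fmnl1, a formin gene of leukocytes, and Trerf1 (0.999 each), and Fmnl1 was at 157.7, 189.6 and 158.4 TPM in CCl4 libraries, against 30.9, 32.1, 34.6, 29.1 and 68.1 TPM in naive libraries. Tgfbi ran like Lgals3 and Ckb (0.997 each), and Lgals3 was at 445.4, 210.9 and 292.0 TPM in CCl4 libraries, against 74.7, 86.0, 56.1, 64.2 and 115.7 TPM in naive libraries. Hbegf ran like Pear1, an endothelial and platelet receptor gene, and Amotl2, a gene of endothelial junctions (0.995 each), and Amotl2 was at 2.92, 8.25 and 3.86 TPM in CCl4 libraries, against 79.1, 91.1, 113.6, 88.4 and 61.7 TPM in naive libraries. Vegfa ran like Gphn (0.981) and Errfi1 (0.975), Pdgfa like Bcl6 (0.975) and Dennd4b (0.974), Thbs1 like Dcdc2c (0.991) and the ribosomal protein gene Rps24 (0.983), and Tgfb1 like Hdac4 (0.982) and Trap1 (0.960).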
